A study of Mus musculus with 28 samples.

Results

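Free rapamycin given under the skin was compared with no treatment in spleen T cells of mice. The comparison takes 13 of the 28 libraries of the series, chosen by their labelled treatment: 6 of rapamycin-treated mice (R) and 7 of untreated mice (NT). R mice received rapamycin suspended in 0.2% carboxymethylcellulose (CMC), injected into the scruff of the neck at 1 mg/kg from a 0.125 mg/ml stock, once a day for 11 days. NT mice received nothing, so in R against NT the drug cannot be told apart from its vehicle or from the injections. No group of the series received CMC alone. All mice were male C57BL/6J aged 8 to 12 weeks. CD3+ T cells were isolated from the spleen with magnetic beads after red cells had been lysed, and RNA was sequenced as 1 bulk library per mouse. The other 3 groups were empty polymersomes (PS, n = 4), oral rapamycin (RO, the Rapamune formulation, n = 6) and polymersomes loaded with rapamycin (rPS, n = 5). Polymersomes are nanoscale vesicles of a synthetic polymer, injected as R was, so PS mice had injections and polymer without the drug. Levels are given as CPM, the count of a gene scaled to the total of its library. Every gene was tested with all 13 libraries and again without the R and NT libraries whose Cd3e level was under 60 CPM. That left 5 R and 3 NT libraries, named here the T-cell-rich libraries.

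Rapamycin binds the small immunophilin FKBP12, the product of Fkbp1a, and the pair inhibits the kinase mTOR within mTOR complex 1. That complex drives protein synthesis, nucleotide and lipid synthesis and entry into the cell cycle when a T cell is activated, and rapamycin is used to suppress immune responses to grafts. B cells, germinal centre cells and the plasma cells that secrete antibody also depend on mTOR complex 1. Interferons, released on infection, induce a set of antiviral genes.

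Total counts were 5137059 to 8844206 per R library and 5016231 to 15696546 per NT library. A count of 0 allows 3 counts, 0.191 to 0.598 CPM depending on the library, for counting error only. Cd3e, which belongs to the CD3 complex the sort selected for, was at 9.58 CPM in R replicate 3 and at 174 to 242 CPM in the other 5 R libraries. In NT it was at 18.5 CPM in replicate 3, 34.6 CPM in replicate 4, 23.7 CPM in replicate 7 and 44.9 CPM in replicate 8, at 76.0 CPM in replicate 5, and at 401 and 471 CPM in replicates 2 and 6. Lyz2, the lysozyme of macrophages and neutrophils, ran the other way, at 2827 CPM in R replicate 3 and 1865 to 3721 CPM in NT replicates 3, 4, 7 and 8, against 141 to 693 CPM in the 8 others. The defining marker of the labelled cell type was thus low in 1 of 6 R and 4 of 7 NT libraries. The part of this difference in the results below was not tested beyond the values given. In bulk samples, fewer cells of a type and less RNA per cell cannot be told apart. Malat1, an abundant nuclear RNA, and mt-Rnr2, the large ribosomal RNA of mitochondria, had entries of 0 in the 7 NT files but were at 16041 to 25150 CPM and 3444 to 21836 CPM in the R files. Both were left out of the tests. They were the 2 genes with 0 in every NT file and at least 10 counts in every R file, and no gene showed the reverse. In the PS and rPS files, and in the RO files other than replicate 7, Malat1 was at 15693 to 27818 CPM. There mt-Rnr2 was at 1854 to 17739 CPM. The sources used here do not say whether the NT files were counted in the same way as the R files, and any difference in counting would coincide with the groups and cannot be told apart from the treatment.

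**Figure D1:**
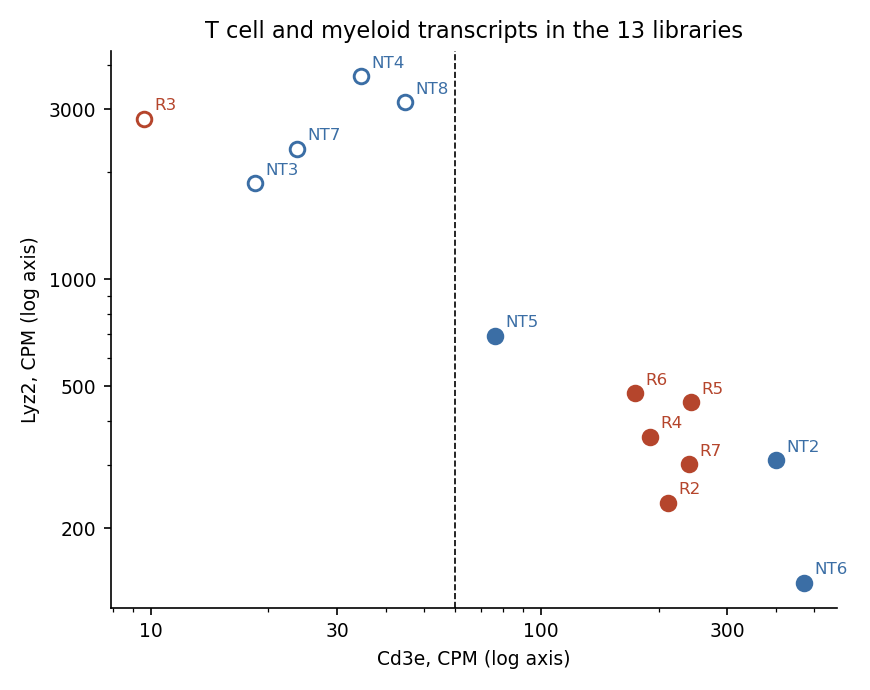
Level of Cd3e (horizontal, CPM, log axis) and of Lyz2 (vertical, CPM, log axis) in each of the 6 R and 7 NT libraries, marked by group and replicate. Open circles lie under the dashed line at 60 CPM of Cd3e, where Lyz2 was at 1865 to 3721 CPM, and filled circles are the T-cell-rich libraries.

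With all libraries, 106 of 17130 genes tested (0.619%) differed between R and NT, 100 lower in R (0.584%) and 6 higher (0.035%), by edgeR's quasi-likelihood test at a Benjamini-Hochberg adjusted p under 0.05. The genes that fell included genes of cell division, interferon-stimulated genes and 21 immunoglobulin genes. Among the T-cell-rich libraries 8 of 17069 genes passed (0.0469%), 7 lower in R (0.041%) and 1 higher (0.00586%), and these 8 were also called with all libraries. Of the 106 genes, 102 were tested in the T-cell-rich libraries, and 102 had the same sign there. At an unadjusted p under 0.05 there were 2362 genes (13.8%) with all libraries and 1193 (6.99%) in the T-cell-rich ones. DESeq2 called 2.64% and 0.375% of genes in these 2 comparisons, and limma voom with sample quality weights, named voom here, called 41.4% and 29.3%, shares against which the counts per list given below are to be read. When the R and NT libraries were fitted alone, without the other groups, 5 of 15652 genes were called (0.0319%), among them Pclaf, Gpr55, Irgm1 and Igkv12-46. In the T-cell-rich set fitted alone, Pclaf was the 1 gene called of 15847 (0.00631%). Leaving out R replicate 3 gave 557 calls with all other libraries, leaving out NT replicate 5 gave 463 and leaving out NT replicate 6 gave 240. When NT replicate 7, 3, 8 or 4 was left out, the calls were 53, 47, 41 and 40, in that order. When R replicate 7, 2, 5 or 6 was left out, they were 38, 36, 36 and 22. The 8 calls of the T-cell-rich libraries became 346 when NT replicate 5 was left out, 5 when NT replicate 2 or R replicate 4 was left out, and 4 when R replicate 5, 6 or 7 was left out.

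Among the 8 genes called in both fits, 7 are described, namely Pclaf, Gpr55, Cep55, Stmn1, Mybl1 and Iigp1, which fell in R, and Syt6, which rose. Pclaf (ENSMUSG00000040204.7, chromosome 9), which binds the replication clamp PCNA during DNA synthesis, was at 3.90, 7.37, 5.05, 5.06, 4.3 and 4.20 CPM in R replicates 2 to 7. In NT replicates 2 to 8 it was at 21.5, 19.3, 21.1, 22.6, 12.7, 26.6 and 27.7 CPM. The groups did not overlap, and the highest R library was the T-cell-poor replicate 3. Over all genes tested, the R libraries lay wholly below the NT libraries for 0.473%. Pclaf fell by 2.12 ± 0.21 on the log2 scale (SE of the fit, adjusted p = 2.87e-06), and by 2.05 ± 0.23 in the T-cell-rich libraries (adjusted p = 0.000163). It passed in each of the 24 settings compared with all libraries and in each of the 19 compared in the T-cell-rich libraries.

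Cep55 (ENSMUSG00000024989.16, chromosome 19) acts at the last step of cell division, the cutting of the bridge between daughter cells. Its levels in R replicates 2 to 7 were 1.17, 2.65, 0.546, 0.584, 0.905 and 1.48 CPM, against 4.85, 9.09, 7.35, 8.83, 3.19, 9.87 and 8.37 CPM in NT replicates 2 to 8. All R libraries lay below all NT libraries. The change was -2.56 ± 0.33 (adjusted p = 0.000272) and, in the T-cell-rich libraries, -2.48 ± 0.35 (adjusted p = 0.00389), and Cep55 passed in 23 of 24 and 16 of 19 settings. The promoters of Pclaf and Cep55 are shown because these genes had the smallest adjusted p among the division genes called in both fits. The sequences are those of RefSeq, build GRCm38.p6, 250 bases before to 50 after a transcription start, 5′ to 3′ on the strand of the gene. Pclaf is at chr9:65890073-65890372 on the plus strand and the first of 2 Cep55 starts in the table at chr19:38054734-38055033 on the plus strand. Capitals mark CCAAT on either strand (ATTGG on the minus strand) and TTTGAA on either strand (TTCAAA on the minus strand).
Pclaf: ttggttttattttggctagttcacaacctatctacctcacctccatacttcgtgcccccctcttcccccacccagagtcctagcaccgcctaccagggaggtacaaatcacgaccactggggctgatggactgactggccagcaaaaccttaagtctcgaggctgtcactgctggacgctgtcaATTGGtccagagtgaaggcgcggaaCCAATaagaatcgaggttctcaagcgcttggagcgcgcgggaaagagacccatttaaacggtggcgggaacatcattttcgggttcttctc
Cep55: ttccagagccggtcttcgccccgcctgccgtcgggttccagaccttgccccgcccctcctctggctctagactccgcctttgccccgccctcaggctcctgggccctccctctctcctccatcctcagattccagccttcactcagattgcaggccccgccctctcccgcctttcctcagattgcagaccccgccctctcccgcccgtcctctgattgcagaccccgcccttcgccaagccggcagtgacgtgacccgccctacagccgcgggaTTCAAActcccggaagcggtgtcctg
CCAAT is the box bound by the factor NF-Y, and TTTGAA is the core of the cell cycle homology region found in promoters of mitotic genes. Pclaf held CCAAT at -66 to -62 (minus strand) and -41 to -37 (plus strand), counted from the start with no base 0, and Cep55 held TTTGAA at 25 to 30 (minus strand).

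Gpr55 (ENSMUSG00000049608.10, chromosome 1), a receptor for lysophosphatidylinositol lipids, was at 9.23, 10.3, 7.50, 7.40, 8.59 and 7.95 CPM in R replicates 2 to 7, against 17.4, 20.1, 19.5, 19.8, 16.4, 17.3 and 21.9 CPM in NT replicates 2 to 8. The spread within each group was small and the groups did not overlap. Gpr55 fell by 1.17 ± 0.14 on the log2 scale (adjusted p = 5.96e-05), and by 1.12 ± 0.17 in the T-cell-rich libraries (adjusted p = 0.00635). It passed in 24 of 24 and 17 of 19 of the same settings.

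Stmn1 (ENSMUSG00000028832.12, chromosome 4) encodes stathmin, which takes microtubules apart as the mitotic spindle forms. It was at 13.8, 8.99, 14.5, 8.57, 5.31 and 7.04 CPM in R replicates 2 to 7, against 30.9, 18.8, 28.4, 30.4, 23.8, 24.4 and 23.7 CPM in NT replicates 2 to 8. Here too every R library was below every NT library. The change was -1.42 ± 0.21 (adjusted p = 0.00208), and -1.51 ± 0.27 in the T-cell-rich libraries (adjusted p = 0.0422). It passed in 23 of 24 settings with all libraries but in 11 of 19 in the T-cell-rich libraries. Mybl1 (ENSMUSG00000025912.17, chromosome 1), a MYB-family transcription factor expressed in germinal centre B cells, was at 1.3, 1.92, 0.546, 0.779, 1.24 and 1.36 CPM in R replicates 2 to 7. In NT replicates 2 to 8 it was at 6.58, 3.79, 2.81, 9.24, 3.19, 7.07 and 5.38 CPM, and the groups did not overlap. Mybl1 changed by -2.14 ± 0.33 (adjusted p = 0.00215), and by -2.51 ± 0.38 in the T-cell-rich libraries (adjusted p = 0.00738), and it passed in 23 of 24 and 17 of 19 settings.

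Iigp1 (ENSMUSG00000054072.13, chromosome 18), a GTPase induced by interferon gamma that attacks the vacuoles of intracellular parasites, was at 6.63, 5.75, 2.59, 7.20, 4.64 and 7.50 CPM in R replicates 2 to 7. In NT replicates 2 to 8 it was at 35.5, 12.4, 5.86, 20.2, 23.2, 15.8 and 10.8 CPM. The groups overlapped through NT replicate 4, a T-cell-poor library. The change was -1.63 ± 0.37 (adjusted p = 0.0369), and -2.21 ± 0.41 in the T-cell-rich libraries (adjusted p = 0.0436), where the groups did not overlap. This was the least stable of these calls, passing in 14 of 24 settings with all libraries and in 9 of 19 in the T-cell-rich libraries.

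Syt6 (ENSMUSG00000027849.20, chromosome 3), a synaptotagmin of membrane fusion, was at 10.1, 0.147, 21.7, 13.8, 20.1 and 23.9 CPM in R replicates 2 to 7. In NT replicates 2 to 8 it was at 3.35, 0, 0.234, 0.679, 1.97, 0.155 and 0.598 CPM. Low values were thus seen in NT and in R replicate 3, the R library with the least Cd3e, and the other 5 R libraries lay above all NT libraries. Syt6 rose by 3.83 ± 0.71 on the log2 scale (adjusted p = 0.0108), and by 3.11 ± 0.56 in the T-cell-rich libraries (adjusted p = 0.0422). It passed in 22 of 24 and 10 of 19 settings, and voom gave 6.11 with all libraries. Syt6 was at or under 3 counts, and so not told from 0, in 1 of 6 R and 4 of 7 NT libraries, which makes its fold imprecise. In NT too, the highest Syt6 values were those of replicates 2 and 6, which held the most Cd3e.

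**Figure D2:**
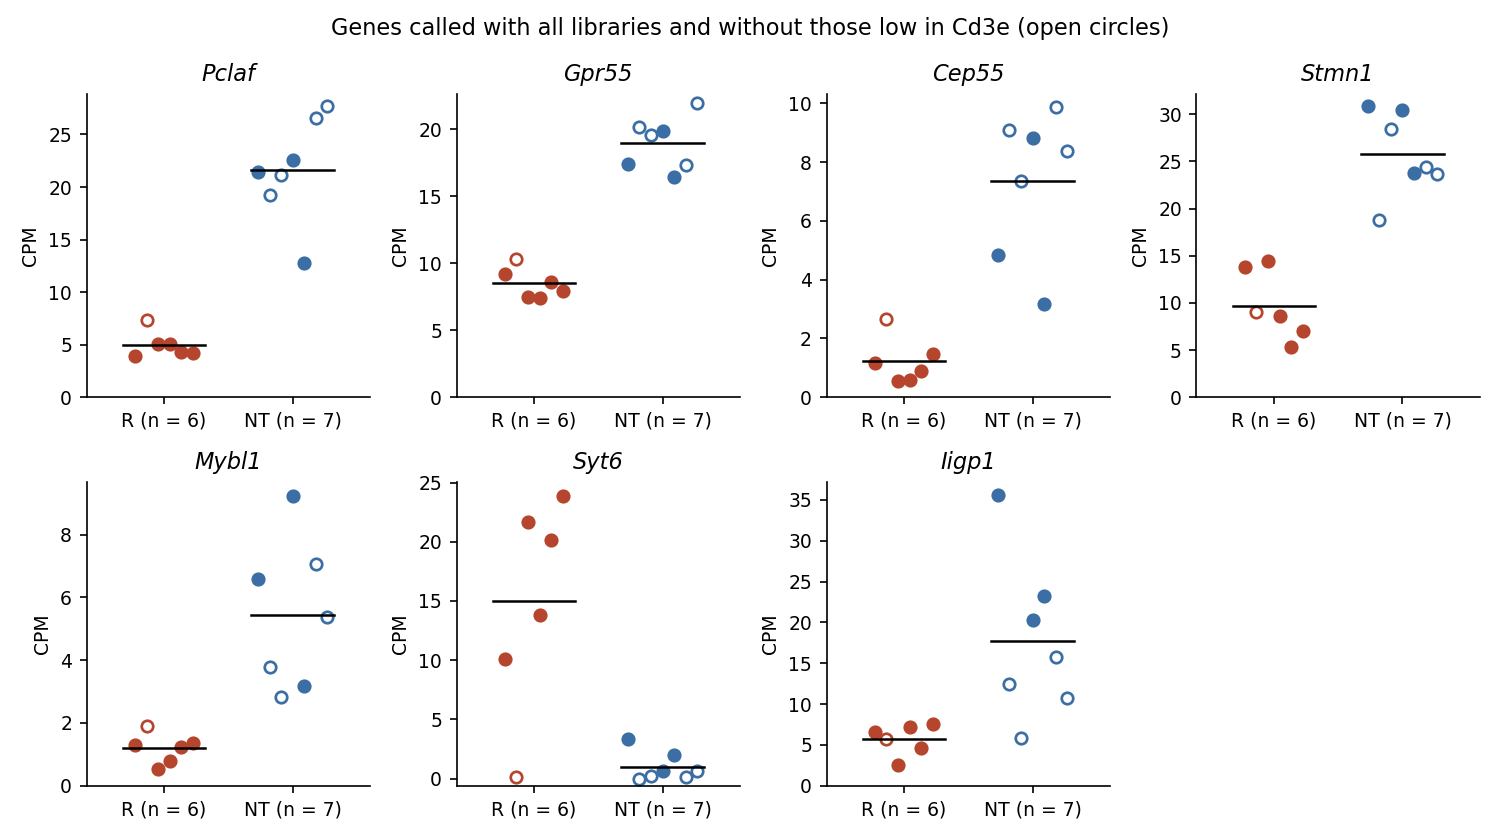
Level (CPM) of 7 genes called in both fits, R (n = 6) left of NT (n = 7), with 1 circle per library and a bar at the mean. Open circles are the T-cell-poor libraries, and R and NT do not overlap for Pclaf, Gpr55, Cep55, Stmn1 and Mybl1.

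Further cell division genes fell in R. Of the 32 genes of a mitosis list, 6 fell with all libraries (Stmn1, Top2a, Kif20a, Cdc20, Bub1 and Nuf2) and 0 rose. The median of the list was -1.04 on the log2 scale and 31 of the 32 were below 0, where the median of all genes tested was 0.0017. Without the T-cell-poor libraries 1 of the 32 was called (Stmn1), and the median was -0.56. Without R replicate 3, 18 of the 32 were called, and without NT replicate 5, 17, but 0 when R and NT were fitted alone, where the median was -1.05. Top2a, which untangles DNA before chromosomes part, had a lowest, median and highest level of 21.4, 41.7 and 55.4 CPM in R, against 55.0, 117 and 181 CPM in NT. The groups touched at the ends of their ranges. Top2a fell by 1.62 ± 0.28 on the log2 scale (adjusted p = 0.00883), and the T-cell-rich libraries gave -1.18 ± 0.29 (adjusted p = 0.185). Kif20a, a motor protein of the dividing cell's midzone, fell by 1.43 ± 0.25 (adjusted p = 0.00895), and the T-cell-rich libraries gave -0.74 ± 0.26 (adjusted p = 0.551). Among members chosen after their values were seen, Cdc20, the activator of the complex that starts chromosome separation, fell by 1.24 ± 0.23 and the checkpoint kinase Bub1 by 1.80 ± 0.38. Mki67, the usual marker of dividing cells, was at 70.7, 157 and 232 CPM in R (lowest, median, highest), against 116, 258 and 454 CPM in NT. Its ranges overlapped widely, and its change of -0.81 ± 0.33 did not pass (adjusted p = 0.273).

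Of the 34 genes of S phase and DNA replication, 2 were called, Pclaf and Uhrf1, both lower in R, and the median was -0.53 on the log2 scale. Uhrf1, which carries DNA methylation through replication, was at 11.6, 19.5 and 26.7 CPM in R, against 25.2, 40.9 and 63.6 CPM in NT. The highest R library reached the lowest NT library, and the change was -1.21 ± 0.22 (adjusted p = 0.00954). For Uhrf1 the T-cell-rich libraries gave -0.69 ± 0.22 (adjusted p = 0.478). Mcm5, a subunit of the replicative helicase, changed by -0.52 ± 0.13 and missed the threshold (adjusted p = 0.0522). In the T-cell-rich libraries Pclaf alone of the 34 was called, and the median was -0.32. With all libraries 10 were called without R replicate 3 and 9 without NT replicate 5, but 1 when R and NT were fitted alone. In the T-cell-rich libraries 3 were called without NT replicate 5, and 1 when R and NT were fitted alone. Of 16 MYB and E2F factors tested, Mybl1 and E2f7 fell. E2f7, a repressor of E2F target genes, changed by -1.55 ± 0.32 (adjusted p = 0.0214), and Foxm1, the activator of the mitotic genes, by -1.03 ± 0.25 (adjusted p = 0.0571, not called). For E2f7 the T-cell-rich libraries gave -1.12 ± 0.38 (adjusted p = 0.515). The median of these factors was -0.43, and -0.26 in the T-cell-rich libraries, where Mybl1 was called. Brip1, a repair helicase chosen after its values were seen, also fell with all libraries, by 1.25 ± 0.27.

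Letters linked with the cell cycle were counted in the promoters of these lists. Of 28 RefSeq promoters found for 27 of the 32 mitosis genes, 78.6% held CCAAT, 78.6% TTTGAA and 0% TTTGGCGC, an E2F site, on either strand, against 37.4%, 17.9% and 0.514% of all 32851 promoters of the same length. Of 33 promoters for 28 of the 34 S phase genes, 57.6% held CCAAT, 12.1% TTTGAA and 15.2% TTTGGCGC. Promoters were found for 59 of the 100 genes called lower with all libraries, and of these 69 promoters 49.3% held CCAAT and 24.6% TTTGAA. For 4 of the 8 genes called in both fits 7 promoters were found, of which 14.3% held CCAAT and 28.6% TTTGAA. The Top2a promoter, at chr11:99024140-99024439 on the minus strand, is shown because it carried the largest number of matches of those printed, 6 of CCAAT and 2 of TTTGAA, with the same capitals as above.
Top2a: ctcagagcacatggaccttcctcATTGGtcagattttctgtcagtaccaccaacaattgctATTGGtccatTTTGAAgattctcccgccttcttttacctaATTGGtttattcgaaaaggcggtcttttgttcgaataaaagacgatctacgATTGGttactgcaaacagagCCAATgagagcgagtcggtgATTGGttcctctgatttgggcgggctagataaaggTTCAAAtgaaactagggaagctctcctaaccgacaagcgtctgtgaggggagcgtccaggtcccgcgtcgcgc
These matches describe the sequence and were not tested as binding sites. The shares of the mitosis and S phase lists cover members whether or not they were called, so they do not bear on the change in R.

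Some interferon-stimulated genes fell in R. Of 42 genes in a type I interferon list, 6 fell with all libraries, among them Xaf1, Ifi27l2a, Zbp1, Irf9 and Rtp4, and 0 rose. The median was -0.77 on the log2 scale, with 40 of 42 below 0. The summed level of the list was 2155 to 2947 CPM in R, against 3261 to 4321 CPM in NT, with no overlap. Among the T-cell-rich libraries 1 of 41 was called, the median was -0.64 and 39 lay below 0. There, the R libraries lay wholly below the NT libraries for 23 of the genes, where this held for 4.14% of all genes tested. Without R replicate 3, 26 of the 42 were called and without NT replicate 5, 13, but 0 when R and NT were fitted alone, where the median was -0.75. Without NT replicate 5, 9 were called in the T-cell-rich libraries. Xaf1, a partner of apoptosis inhibitors, was at 9.55, 14.0 and 18.5 CPM in R, against 18.5, 25.6 and 35.3 CPM in NT, and fell by 0.92 ± 0.17 (adjusted p = 0.00997). For Xaf1 the T-cell-rich libraries gave -0.77 ± 0.22 (adjusted p = 0.312). Ifi27l2a was at 10.5, 11.6 and 18.1 CPM in R, against 13.3, 39.5 and 65.7 CPM in NT, a change of -1.67 ± 0.32 (adjusted p = 0.0129). It changed by -1.89 ± 0.41 in the T-cell-rich libraries (adjusted p = 0.108). The 2 genes differ in spread: the Xaf1 ranges met at their ends, while for Ifi27l2a the lowest NT library lay among the R libraries.

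Zbp1, a sensor of Z-form nucleic acid, and Irf9, a transcription factor of the interferon response, were chosen after their values were seen, as was Irgm1. Zbp1 fell by 0.99 ± 0.21 with all libraries (adjusted p = 0.0297) and changed by -1.30 ± 0.26 in the T-cell-rich libraries (adjusted p = 0.0632). Irf9 fell by 0.62 ± 0.14 (adjusted p = 0.0396). Irgm1, an interferon-induced GTPase that is not in the list, was at 50.9, 53.6 and 55.1 CPM in R, against 68.1, 87.1 and 104 CPM in NT. Its R libraries were closely grouped below all NT libraries, and it fell by 0.73 ± 0.14 (adjusted p = 0.0129). Irgm1 changed by -0.83 ± 0.19 in the T-cell-rich libraries (adjusted p = 0.119). Its promoter, RefSeq GRCm38.p6 chr11:48871371-48871670 on the minus strand, is shown for the interferon-stimulated response element, searched as GAAA, any 2 bases and GAAA on both strands. Capitals mark 2 overlapping matches at -30 to -21 and -24 to -15, besides CCAAT at -145 to -141 and TTTGAA at -86 to -81.
Irgm1: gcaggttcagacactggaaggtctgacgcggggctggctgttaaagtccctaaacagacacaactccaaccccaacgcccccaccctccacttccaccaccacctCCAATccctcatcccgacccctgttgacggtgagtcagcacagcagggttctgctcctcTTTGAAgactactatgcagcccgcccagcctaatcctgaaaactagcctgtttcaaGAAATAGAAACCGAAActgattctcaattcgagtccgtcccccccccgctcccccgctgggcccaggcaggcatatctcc
Of 38 promoters for 31 of the 42 interferon genes, 50% held the interferon-stimulated response element, against 3.44% of all promoters. This share covers list members whether or not they were called, so it describes the list and does not bear on the change in R.

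Genes of antigen presentation by MHC class I, many of which interferon induces, gave 1 call. Of 21 such genes Pdia3, a chaperone of the peptide-loading complex, fell with all libraries, and the median was -0.22 on the log2 scale with 20 of 21 below 0. Pdia3 was at 148, 171 and 197 CPM in R, against 224, 282 and 337 CPM in NT, and fell by 0.75 ± 0.16 (adjusted p = 0.025). Among the T-cell-rich libraries edgeR called 0, with 13 lower at an unadjusted p under 0.05, 3 called by DESeq2 and 18 by voom. There edgeR called 6 when NT replicate 5 was left out. When R and NT were fitted alone it called 0, both with all libraries and in the T-cell-rich ones. The median in the T-cell-rich libraries was -0.41, and the summed level was 6977 to 7745 CPM in R, against 9094 to 9865 CPM in NT, with no overlap. Psmb9, a subunit of the immunoproteasome, changed by -0.37 ± 0.10 with all libraries (adjusted p = 0.0798) and by -0.55 ± 0.12 in the T-cell-rich ones (adjusted p = 0.115).

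Antibody genes were among those that fell, and Ighg2c had the largest fall of the named genes called with all libraries. Of 11 immunoglobulin constant region genes tested, 6 fell with all libraries (Ighg2c, Ighg1, Ighg2b, Iglc1, Igkc and Ighm) and 0 rose, with a median of -1.88 on the log2 scale. Without the T-cell-poor libraries 0 of 11 were called by edgeR, 4 were lower at an unadjusted p under 0.05, DESeq2 called 3 and voom 6, and the median was -0.76. Ighg2c, a heavy chain of immunoglobulin G, was at 5.18, 9.97 and 38.2 CPM in R, against 33.3, 210 and 764 CPM in NT. It fell by 4.10 ± 0.74 (adjusted p = 0.00954), and the T-cell-rich libraries gave -2.86 ± 0.70 (adjusted p = 0.189). Ighg1 was at 1.36, 2.99 and 9.72 CPM in R, against 9.05, 27.1 and 237 CPM in NT, and fell by 3.95 ± 0.71 (adjusted p = 0.00954). For Ighg1 the T-cell-rich libraries gave -2.34 ± 0.53 (adjusted p = 0.124). In both genes the R and NT ranges met only at their ends. Igkc, the kappa light chain's constant region, fell by 1.86 ± 0.41 (adjusted p = 0.0321) and Ighm, the IgM heavy chain, by 1.45 ± 0.34 (adjusted p = 0.044). The T-cell-rich libraries gave -0.76 ± 0.44 and -0.37 ± 0.33 for these 2 genes, which were not called there. Without R replicate 3 or without NT replicate 5, 8 of the 11 were called, but 0 when R and NT were fitted alone, where the median was -1.89.

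Variable segments were also among the genes that fell. Of 93 heavy chain variable segments 9 fell and of 78 kappa segments 6 fell with all libraries, with medians of -1.39 and -1.33 on the log2 scale. The medians were -0.32 for both families in the T-cell-rich libraries. Near-identical segments can share reads, so single segments are uncertain. Over the 21 immunoglobulin genes called, the median was -2.52 with all libraries and -1.74 in the T-cell-rich libraries, where the other 79 genes called lower had medians of -1.36 and -1.04. The summed constant region level was 3594 to 4587 CPM in R, against 3576 to 19742 CPM in NT, and in the T-cell-rich NT libraries 3576 to 6514 CPM.

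A few plasma cell genes fell too. Of 22 genes of a plasma cell list 4 fell (Eaf2, Jchain, Creld2 and Sdc1), with a median of -0.75 on the log2 scale, and of 31 genes of endoplasmic reticulum folding and secretion 3 fell (Txndc5, Sec24d and Pdia3), with a median of -0.47. Jchain, which joins immunoglobulin M and A into polymers, was at 93.2, 136 and 260 CPM in R, against 178, 654 and 916 CPM in NT, and fell by 2.01 ± 0.42 (adjusted p = 0.025). Txndc5, a disulfide isomerase of the endoplasmic reticulum, was at 113, 123 and 132 CPM in R, against 142, 240 and 373 CPM in NT, and fell by 1.12 ± 0.21 (adjusted p = 0.0107). For Txndc5 the T-cell-rich libraries gave -0.60 ± 0.21 (adjusted p = 0.534). The Jchain ranges overlapped and those of Txndc5 did not. In the T-cell-rich libraries edgeR called 0 genes of either list, with 6 and 8 lower at an unadjusted p under 0.05, DESeq2 called 0 and 0, voom 6 and 17, and the medians were -0.35 and -0.23. With all libraries but R replicate 3 the calls were 10 and 8, with all but NT replicate 5 they were 7 and 7, and with R and NT fitted alone 0 and 0. Of 14 germinal centre B cell genes Mybl1 and Nuggc fell. Nuggc, a GTPase of germinal centre B cells, was at 0, 0.722 and 1.33 CPM in R, against 1.15, 4.16 and 6.52 CPM in NT, a change of -2.32 ± 0.53 (adjusted p = 0.0398), and -2.68 ± 0.62 in the T-cell-rich libraries (adjusted p = 0.124).

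No gene of B cell identity was called by edgeR. Of 22, 0 passed in either fit and 0 were under an unadjusted p of 0.05, DESeq2 called 0 in both and voom 3 with all libraries and 10 in the T-cell-rich ones, and the medians were 0.22 and 0.46. The summed level of the list was 2756 to 9277 CPM in R, against 3910 to 8956 CPM in NT.

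**Figure D3:**
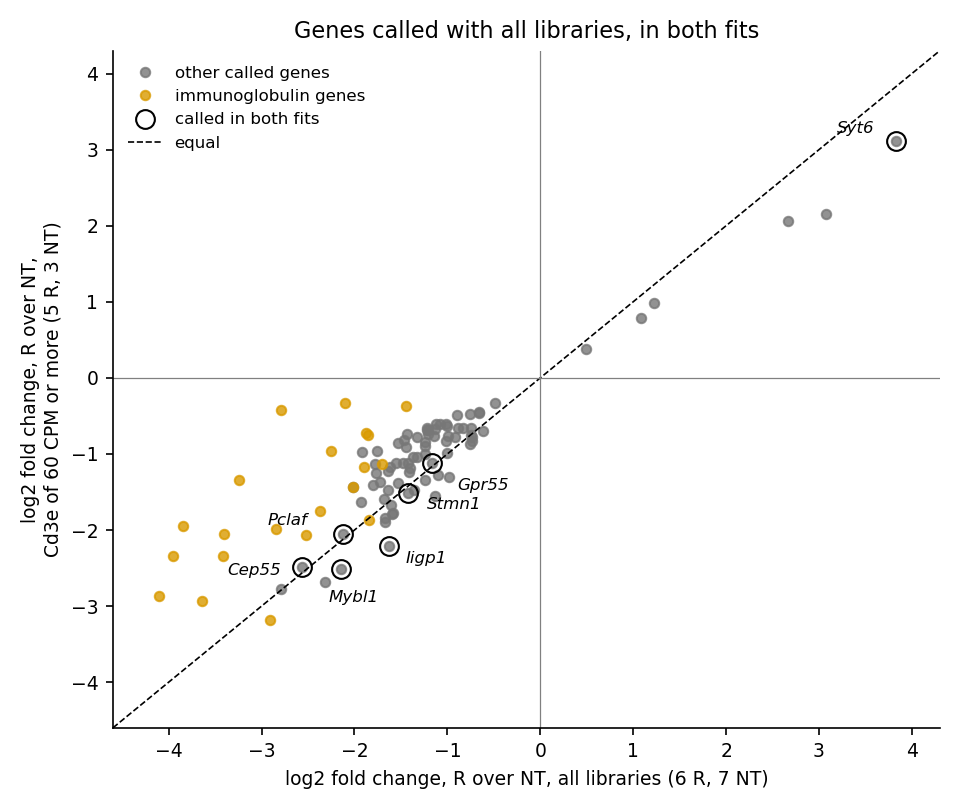
Log2 fold change, R over NT, of called genes tested in both fits, with all libraries on the horizontal axis and in the T-cell-rich libraries on the vertical axis. Immunoglobulin genes (orange) lie further from the dashed line of equal change than most others, and the 7 ringed genes were called in both fits.

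**Figure D4:**
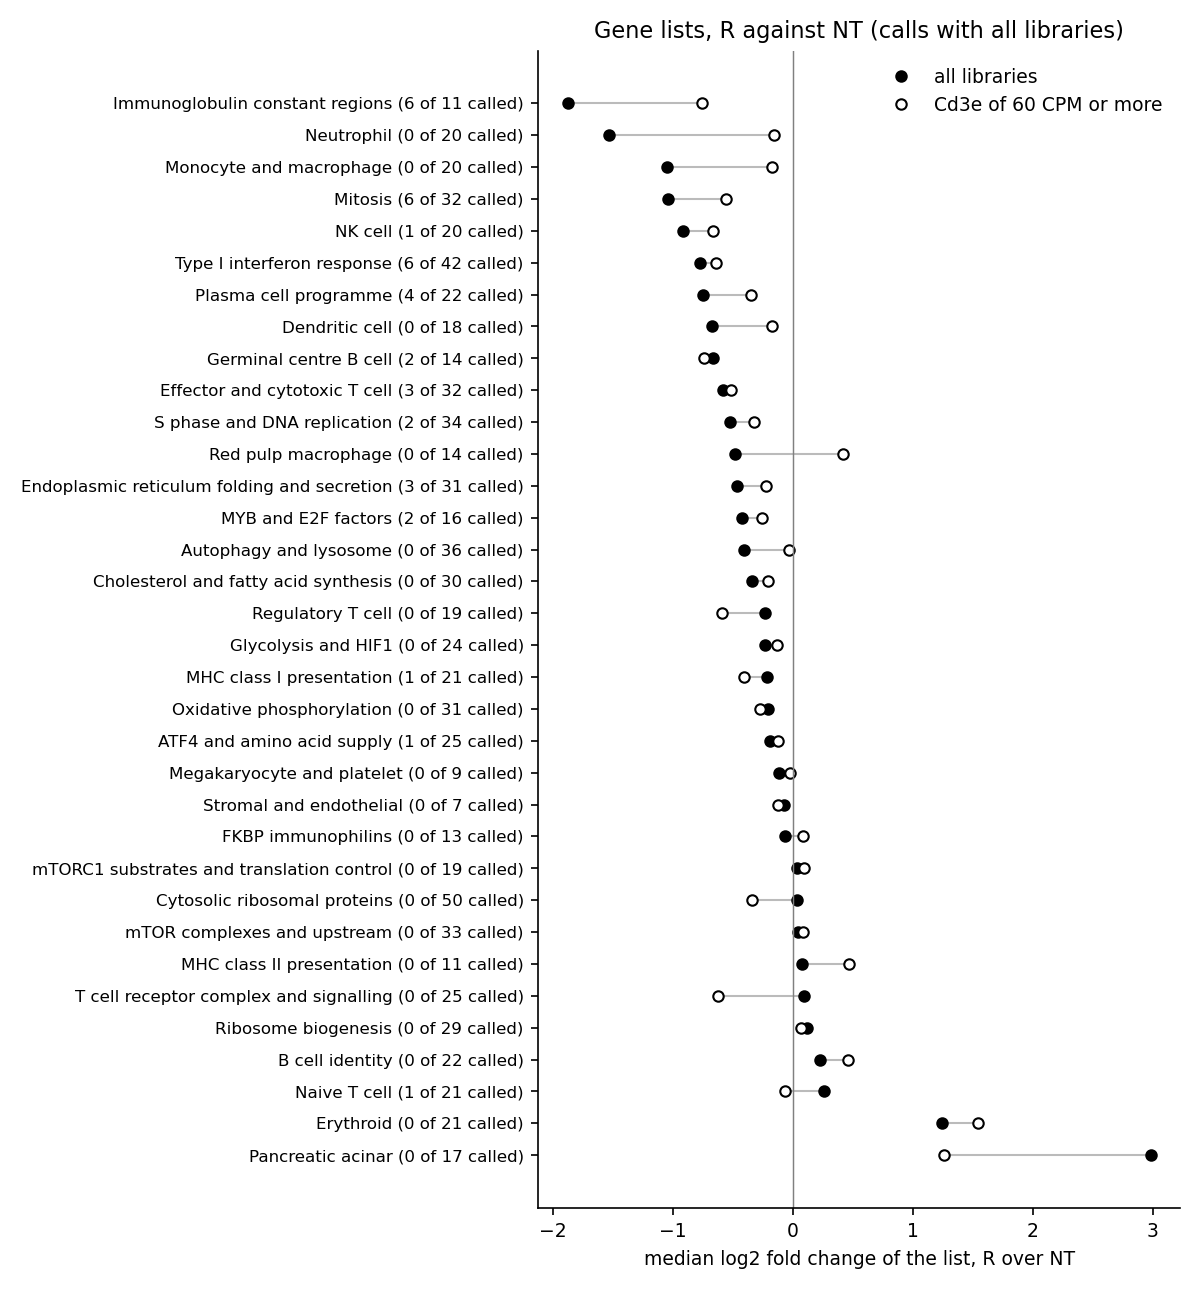
Median log2 fold change, R over NT, of each of the 34 gene lists, with all libraries (filled) and in the T-cell-rich libraries (open), and the number of members called with all libraries beside each name. The neutrophil and the monocyte lists lie at -1.54 and -1.05 with all libraries and at -0.16 and -0.18 in the T-cell-rich libraries, values that single libraries move and, in the T-cell-rich set, turn in sign.

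Some effector and cytotoxic genes fell. Of 32 effector and cytotoxic T cell genes Gzmb, Klrg1 and Lgals1 fell with all libraries, with a list median of -0.58 on the log2 scale. Gzmb, a protease of cytotoxic granules, was at 2.73, 3.59 and 5.01 CPM in R, against 6.41, 9.63 and 20.5 CPM in NT, and fell by 1.64 ± 0.37 (adjusted p = 0.0369). Klrg1, an inhibitory receptor of terminal effector cells, was at 1.36, 1.63 and 3.39 CPM in R, against 3.57, 6.39 and 10.4 CPM in NT, and fell by 1.67 ± 0.39 (adjusted p = 0.044). For neither gene did the groups overlap. The T-cell-rich libraries gave -1.47 ± 0.44 (adjusted p = 0.404) and -1.84 ± 0.50 (adjusted p = 0.281), and edgeR called 0 of the 32 there, with 7 lower at an unadjusted p under 0.05, 1 called by DESeq2 and 20 by voom, and 4 called without NT replicate 5. Without R replicate 3 or NT replicate 5, 5 of the 32 were called with the other libraries, and 0 when R and NT were fitted alone. The summed level of the 32 was 3093 to 11522 CPM in R, against 3431 to 11805 CPM in NT. In the T-cell-rich libraries it was 3093 to 3819 CPM in R, against 3431 to 5463 CPM in NT, so the highest levels were those of T-cell-poor libraries. Of 20 NK cell genes Ncr1, an activating receptor of NK cells, fell by 1.48 ± 0.34 (adjusted p = 0.0428), with levels of 6.76, 8.58 and 12.4 CPM in R, against 9.43, 30.2 and 40.9 CPM in NT. The median of the NK list was -0.92, and -0.67 in the T-cell-rich libraries, where 0 of its genes were called. With all other libraries 6 were called without R replicate 3 and 3 without NT replicate 5, but 0 when R and NT were fitted alone. The summed level of the NK list was 266 to 484 CPM in R, against 410 to 733 CPM in NT, so the ranges overlapped. The part of NK cells, or of other cells that are not T cells, in the effector and cytotoxic genes was not tested.

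The T cell receptor list had 0 of 25 genes called by edgeR with all libraries, 0 at an unadjusted p under 0.05, 0 by DESeq2 and 23 by voom. Its median was 0.09 on the log2 scale with all libraries, but 2.14 by voom and -0.06 without NT replicate 5. It was -0.63 in the T-cell-rich libraries, where 4 were lower at an unadjusted p under 0.05. The sign of the median thus depended on which libraries were compared and how they were weighted. Of 21 naive T cell genes Bcl2 rose with all libraries. The median of the list was 0.26 with all libraries and -0.07 in the T-cell-rich ones, where 13 of the 21 were below 0 and 0 were called. Bcl2, which protects lymphocytes from apoptosis, was at 188, 611 and 718 CPM in R, against 133, 211 and 385 CPM in NT, and rose by 1.09 ± 0.26 (adjusted p = 0.0472). The T-cell-rich libraries gave 0.79 ± 0.23 (adjusted p = 0.371), with all R libraries above all NT libraries, which was so for 2.28% of all genes tested there. Other genes that rose with all libraries were Flrt1, a cell adhesion protein, by 1.22 ± 0.27 (adjusted p = 0.0369), Leng8 by 0.49 ± 0.12 (adjusted p = 0.0458), and, chosen after their values were seen, the unnamed transcripts A530083I20Rik and 4933440M02Rik. These 2 were at or under 3 counts in 6 and 3 of the 7 NT libraries, so no fold is given for them. Of 19 regulatory T cell genes edgeR called 0 in either fit, with 2 lower at an unadjusted p under 0.05 with all libraries and 5 in the T-cell-rich ones, DESeq2 called 1 and 0, voom 10 and 13, and the medians were -0.24 and -0.59. By voom the median with all libraries had the other sign, at 0.45. Without NT replicate 5, 4 were called in the T-cell-rich libraries, with a median of -1.01.

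Ratios within a library do not depend on its scaling. The log2 ratio of Cd4 counts to Cd8a counts, the co-receptors of helper and cytotoxic T cells, was -1.44 ± 0.65 in R (SD, n = 6; range -2.43 to -0.75) and -0.66 ± 0.27 in NT (n = 7; range -0.89 to -0.16). The difference was -0.78 (exact two-sided permutation test, p = 0.00583, Benjamini-Hochberg adjusted over 3 ratios 0.00874). In the T-cell-rich libraries it was also -0.78, with p = 0.0357 by the exact permutation test, the smallest that 56 regroupings can give, and an adjusted p of 0.0536. The log2 ratio of Foxp3, the master factor of regulatory T cells, to Cd4 was -1.74 ± 0.62 in R and -2.49 ± 0.27 in NT (SD, n = 6 and n = 7). The difference was 0.76 (exact permutation test, adjusted p = 0.0175), and 0.63 in the T-cell-rich libraries (exact permutation test, adjusted p = 0.0714). The ranges overlapped, at -2.47 to -1.12 in R and -2.93 to -2.04 in NT, and R replicates 2, 4 and 7 lay within the NT range. This ratio averaged -3.00 in PS, -2.40 in RO and -2.53 in rPS. Foxp3 itself was not called (0.22 ± 0.39, adjusted p = 0.804), with 10.5, 25.6 and 31.7 CPM in R, against 7.35, 11.6 and 44.7 CPM in NT, nor was Cd4 (-0.42 ± 0.43, adjusted p = 0.672). In the T-cell-poor NT replicate 3, Cd4 and Cd8a were at 71.7 and 80.3 CPM beside 18.5 CPM of Cd3e. In NT replicate 6 they were at 260 and 469 CPM beside 471 CPM of Cd3e. Which cells supplied these counts was not tested, so the ratios need not be those of T cells alone.

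The log2 ratio of summed immunoglobulin G heavy chains (Ighg1, Ighg2b, Ighg2c and Ighg3) to Ighm was -5.28 ± 1.04 in R and -3.33 ± 0.72 in NT (SD, n = 6 and n = 7), a difference of -1.95 (exact permutation test, adjusted p = 0.00874). R replicate 3 was at -3.31 and the other R libraries at -6.23 to -5.13, below the NT range of -4.37 to -2.37. The T-cell-rich libraries had ratios of -5.67 ± 0.43 in R and -3.95 ± 0.46 in NT (SD, n = 5 and n = 3), a difference of -1.73 (exact permutation test, p = 0.0357, the smallest possible, adjusted 0.0536). Means in the other groups were -3.89 in PS, -4.17 in RO and -5.66 in rPS.

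**Figure D5:**
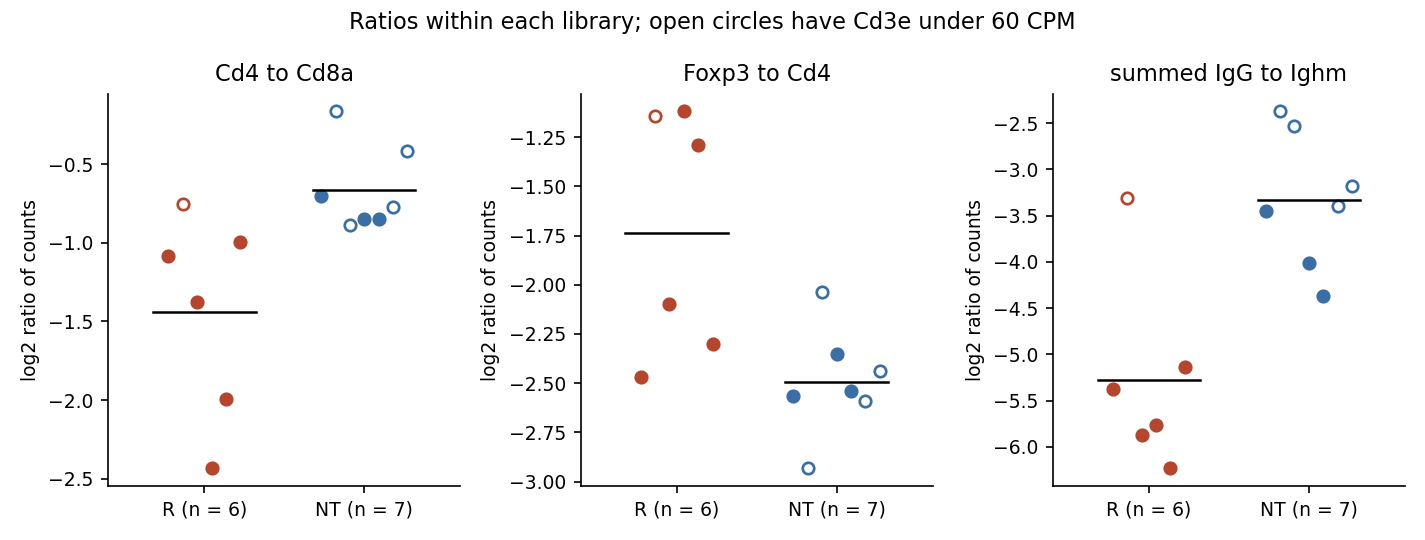
Log2 ratio of counts within each library for Cd4 to Cd8a, Foxp3 to Cd4 and summed immunoglobulin G heavy chains to Ighm, R (n = 6) left of NT (n = 7), with a bar at the mean. Open circles are the T-cell-poor libraries, and for immunoglobulin G to Ighm the filled R circles lie at -6.23 to -5.13, below every NT circle.

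Genes of the mTOR pathway itself did not pass. With all libraries edgeR called 0.619% of all genes tested, a share at which a list of this size may hold no call. Of 33 genes of the mTOR complexes and their upstream regulators edgeR called 0 with all libraries, with 6 at an unadjusted p under 0.05, DESeq2 called 0 and voom, which called 41.4% of all genes, 18, and the median was 0.04 on the log2 scale. Fkbp1a, which encodes the protein that binds rapamycin, was at 43.8, 72.1 and 87.3 CPM in R, against 50.3, 65.4 and 93.0 CPM in NT (-0.06 ± 0.15, adjusted p = 0.857). Mtor was at 113, 133 and 153 CPM in R, against 110, 120 and 129 CPM in NT (0.15 ± 0.09, adjusted p = 0.448). Rptor, the scaffold of complex 1, changed by 0.26 ± 0.11, Rictor, that of complex 2, by 0.23 ± 0.20, the activating GTPase Rheb by 0.17 ± 0.10, the S6 kinase Rps6kb1 by -0.08 ± 0.13 and the translation repressor Eif4ebp1 by -0.57 ± 0.47 (adjusted p = 0.286 to 0.798). The ranges of R and NT overlapped for all of these. These are transcript levels, and the kinase activity of mTOR was not measured.

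Programmes that mTOR complex 1 is known to control are given next. Their few calls stand beside 0.619% of all genes tested, called by edgeR with all libraries. At that share lists of these sizes would hold few calls, so the counts do not set these programmes apart. Of 19 of its substrates and translation factors edgeR called 0 (2 at an unadjusted p under 0.05, 0 by DESeq2, 9 by voom), with a median of 0.03. The 50 cytosolic ribosomal proteins had 0 called (0 unadjusted, 0 by DESeq2, 40 by voom) and a median of 0.04, which was -0.34 in the T-cell-rich libraries. Without NT replicate 5, 19 of the 50 were called in the T-cell-rich libraries and the median was -0.72. The 29 ribosome biogenesis genes had 0 called (1 unadjusted, 0 by DESeq2, 16 by voom) and a median of 0.11. With all libraries the medians of these lists and of the mTOR complexes, all near 0, took the other sign in 1 or more settings. For cholesterol and fatty acid synthesis 0 of 30 were called (14 lower at an unadjusted p, 3 by DESeq2, 14 by voom), with a median of -0.34, and for glycolysis 0 of 24 (4 lower at an unadjusted p, 1 by DESeq2, 15 by voom), with a median of -0.23. Insig1, a regulator of sterol synthesis, changed by -0.59 ± 0.16 (adjusted p = 0.08). Of 25 genes of ATF4 and amino acid supply Psat1, an enzyme of serine synthesis, fell by 0.75 ± 0.18 (adjusted p = 0.044), with 11.5, 12.1 and 18.7 CPM in R, against 16.6, 23.1 and 28 CPM in NT. Of 36 genes of autophagy and lysosomes, a programme that mTOR complex 1 holds back, 0 were called (8 unadjusted, 0 by DESeq2, 25 by voom), and the median was -0.41 with all libraries and -0.04 in the T-cell-rich ones.

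Markers of other cells were compared as well. The 20 neutrophil genes had a median of -1.54 on the log2 scale with all libraries and a summed level of 137 to 3050 CPM in R, against 51.9 to 4957 CPM in NT. The 20 monocyte and macrophage genes had a median of -1.05 and a summed level of 1907 to 11231 CPM in R, against 1141 to 14363 CPM in NT. Neither list had a called gene by edgeR (6 and 4 lower at an unadjusted p under 0.05, 1 and 1 by DESeq2, 20 and 19 by voom), and in the T-cell-rich libraries the medians were -0.16 and -0.18. Without R replicate 3, 10 and 3 genes of these lists were called, and the medians with all other libraries were -3.54 and -1.90. Without NT replicate 5, the medians in the T-cell-rich libraries turned positive, at 0.95 and 0.29. The 21 erythroid genes all had a positive change, with a median of 1.24 and 1.55, and 0 were called by edgeR in either fit (7 and 12 at an unadjusted p, 0 and 0 by DESeq2, 21 and 10 by voom). Their summed level was 213 to 11482 CPM in R, against 1008 to 4525 CPM in NT. Pancreatic acinar transcripts reached 1340 CPM in R replicate 3 and 19.8 to 154 CPM in the other R libraries, against 6.81 to 81.3 CPM in NT, and their median was 2.98 with all libraries and 0.75 without R replicate 3.

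The other injected and oral groups place these genes on a wider scale. Pclaf averaged 4.98 ± 1.26 CPM in R, 3.01 ± 0.89 CPM in rPS, 10.8 ± 2.13 CPM in RO, 14.6 ± 1.87 CPM in PS and 21.6 ± 4.95 CPM in NT (SD, n = 6, 5, 5, 4 and 7, leaving out RO replicate 7, whose file lists 0 for 31.1% of the tested genes). Syt6 averaged 15 ± 8.89 CPM in R, 35.7 ± 22 CPM in rPS, 2.49 ± 1.10 CPM in RO, 1.23 ± 0.59 CPM in PS and 0.998 ± 1.23 CPM in NT. Pclaf in R was nearer to rPS than to NT, and Syt6 in R lay between NT and rPS. Against PS, which shares the R libraries with the main comparison, Pclaf fell by 1.45 ± 0.23 (adjusted p = 0.0164), Cep55 by 1.97 ± 0.36 (adjusted p = 0.043) and Mybl1 by 2.16 ± 0.36 (adjusted p = 0.0202). These were 3 of the 5 genes called in that comparison (0.0292%), and the other 2, Col5a3 and Myb, were chosen after their values were seen. Gpr55 changed by -0.40 ± 0.16 against PS (adjusted p = 0.582), Stmn1 by -0.67 ± 0.24 (adjusted p = 0.545) and Iigp1 by -1.10 ± 0.41 (adjusted p = 0.564). Syt6 changed by 3.67 ± 0.89 (adjusted p = 0.379), and by 3.94 with the T-cell-rich R libraries (adjusted p = 0.00274).

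Against oral rapamycin at the same dose, none of the 7 genes passed with all R libraries (adjusted p = 0.173 for Pclaf and higher for the others). With the T-cell-rich R libraries 3 of 17069 genes passed (0.0176%), Pclaf at -1.26, Cep55 at -1.93 and Syt6 at 2.81 on the log2 scale (adjusted p = 0.0329 for each). The Cd3e filter was applied to R and NT only. RO replicate 3, with 46.9 CPM of Cd3e and 3195 CPM of Lyz2, thus stayed in the RO group, and its part in these 3 calls was not tested.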

How the data were processed

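RNA of 28 mice was deposited as 1 file of expected counts per mouse, estimated by the authors for 55413 gene IDs and not scaled. The submitters' processing notes name Cufflinks 2.1.1 and Cuffdiff, STAR 2.7.5a, Trimmomatic 0.39 and build GRCm39. Not given in the sources used here are the counting step, the annotation release and the strand. Between 21.3% and 25.0% of non-zero values were fractional, so they were rounded. Symbols came from GENCODE M21 (94.0% of IDs). RO replicate 7 was left out of the fits because its file lists 0 for 5319 of the 17130 tested genes.

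Groups came from the labels, which do not say that mice shared a cage or batch. Genes were tested with edgeR 4.0.16 in R 4.3.3 (quasi-likelihood, robust, two-sided, TMM, filterByExpr by group) on the other 27 libraries in 1 fit, 22 without T-cell-poor R and NT libraries, and p was Benjamini-Hochberg adjusted over all genes tested. Ratios were tested with scipy 1.17.1. No within-group pair looked like a repeated library (lowest chi-square per gene 5.39). The scripts were tested on simulated data.

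The comparison, the 34 gene lists and the tests were chosen with earlier results of these data known. Named genes were those called in both fits, up to 15 with the largest fall and 8 with the largest rise among called genes averaging at least 2 CPM, up to 3 with the smallest p per list, and a set of pathway and lineage genes. Alternatives were DESeq2 1.42.0 and its size factors, limma 3.58.1 voom with sample quality weights, no filter, other library sets, covariates, a replicate block, another library size and leaving out each library. Some genes are not reported here.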

Additional observations from a re-analysis of the deposited data

Results flagged for a closer look

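R replicate 3 stood apart from the other 5 R libraries in several measures, by a gap between it and the nearest other library that was large beside the range of the group. It had 9.58 CPM of Cd3e, 2827 CPM of Lyz2 (480 CPM in the next R library), 36.8 CPM of S100a8, a neutrophil protein (8.95 CPM in the next), 10.5 CPM of Foxp3 (24.6 CPM in the next) and 7.37 CPM of Pclaf (5.06 CPM in the next). Its log2 ratio of immunoglobulin G heavy chains to Ighm was -3.31, against -5.13 in the next. Chance gives such a gap in about 1 in 20 groups, and 40 groups were looked at.

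Malat1 was at no less than 16041 CPM and mt-Rnr2 at no less than 3444 CPM in every R file, where every NT file lists 0. The neighbouring mitochondrial RNA mt-Rnr1 was at 1615 to 8111 CPM in R and at 1245 to 25734 CPM in NT. No other gene was at 0 in every NT file with at least 10 counts in every R file. Malat1 and mt-Rnr2 were above 0 in the PS and rPS files and in the RO files other than replicate 7. Whether the NT files were made in another counting run is not given in the sources used here, and such a difference could not be told apart from the treatment.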

How the results depend on the processing

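The 106 calls with all libraries became 69 with no filter on low counts, 453 with DESeq2, 7091 with voom and sample quality weights, 5 when R and NT were fitted alone, 40 with RO replicate 7 in the fit, 199 with B cell and monocyte covariates and 8 without the T-cell-poor libraries. With DESeq2's size factors they were 110, and with the other library size 108. The 8 calls of the T-cell-rich libraries became 14, 64, 4999, 1, 3 and 75 under the same changes up to the covariates, 38 without the T-cell-poor RO library and 346 with a Cd3e threshold of 100 CPM. Leaving out 1 library at a time gave 22 to 557 calls with all libraries and 4 to 346 in the T-cell-rich ones. In voom, the weights of NT replicates 3, 7 and 8 were 1.70 to 2.28 and those of NT replicates 2, 4, 5 and 6 were 0.17 to 0.39. The differences of the 3 ratios kept their sign in the T-cell-rich libraries but not their call, at -0.78 for Cd4 to Cd8a, 0.63 for Foxp3 to Cd4 and -1.73 for immunoglobulin G to Ighm. No called gene changed sign in any setting run. Other causes of these shifts were not tested.

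A replicate block gave 34 calls with all libraries and 1 in the T-cell-rich ones. With it the calls with all libraries were 4 in the mitosis list and 3 each in the interferon and immunoglobulin constant lists. The labels share replicate numbers without saying what they mark. The sample names in brackets carry other numbers, which differ between R and NT for most of the shared replicate numbers. Same-numbered R and NT libraries had correlated deviations of -0.23 to 0.53 over 6 pairs, with 3 of 6 R libraries closest to their own number. The replicate numbers were thus not used as pairs.

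Depth limits the low genes: under 0.191 to 0.598 CPM a level cannot be told from 0, which holds for Syt6 in R replicate 3 and some NT libraries and for A530083I20Rik in 6 of 7 NT libraries.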

Other observations

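Further lists had few or no calls, where edgeR called 0.619% of all genes tested with all libraries and 0.0469% in the T-cell-rich ones. Of 31 oxidative phosphorylation genes edgeR called 0 in either fit (7 and 7 lower at an unadjusted p under 0.05, 0 and 0 by DESeq2, 5 and 18 by voom), and the medians were -0.21 with all libraries and -0.27 in the T-cell-rich ones, where 6 were called when NT replicate 5 was left out. Cox5b, a subunit of cytochrome c oxidase, changed by -0.70 ± 0.22 with all libraries (adjusted p = 0.137). Of 13 FKBP immunophilins edgeR called 0 (1 unadjusted, 0 by DESeq2, 4 by voom), with medians of -0.06 and 0.09. Fkbp5, a co-chaperone of steroid receptors, changed by 0.33 ± 0.16 (adjusted p = 0.348). The 11 MHC class II genes had medians of 0.08 and 0.46, with 0 called by edgeR in either fit (0 unadjusted in both, 0 by DESeq2 in both, 1 and 3 by voom). By voom the first of these medians was -0.14.

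Among markers of other spleen cells, the medians with all libraries and in the T-cell-rich ones were -0.49 and 0.41 for red pulp macrophages, -0.68 and -0.18 for dendritic cells, -0.12 and -0.02 for megakaryocytes and platelets, and -0.07 and -0.13 for stromal and endothelial cells. The red pulp list thus had opposite signs in the 2 fits. Without NT replicate 5 the T-cell-rich medians of dendritic cells and of megakaryocytes and platelets turned to 0.12 and 0.43, and without R replicate 3 the all-library median of dendritic cells was -1.40. Fitted with R and NT alone, the stromal list had a median of -1.11 with all libraries.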
